A study of Homo sapiens with 2 samples.

Results

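The peaks of chromosome 18 are the 332 regions that the authors' peak list placed on this chromosome, out of 26642 in all. The DNA was isolated with an antibody against TCF4 from CAL-27 sphere cells. CAL-27 is an established human cell line derived from a squamous carcinoma of the tongue, and growth as spheres, without attachment, is a usual way to select tumour cells with stem-like traits. The study has 1 TCF4 antibody library and 1 IgG control antibody library, both from CAL-27 sphere cells with no other treatment named in the labels. Data of the IgG library were not analysed here. The rule for members uses the chromosome alone, on the build hg38, and no value of a peak, and it was set with earlier results of these data known. They were divided by the position of the summit, the base of highest signal in a peak, at 18 Mb, which lies in the centromeric gap of the chromosome. This gave 224 peaks on the short arm and 108 on the long arm. With 1 library there was no replicate check and no test between the arms. Intervals below are 95% intervals that cover counting error only, since neighbouring peaks and reads of a library are not independent. Sites recovered with any antibody were therefore not told apart from sites bound by TCF4.

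A transcription factor recovered with an antibody carries along the DNA it sits on, and a peak is a stretch where recovered fragments pile up above the local background. The name TCF4 is shared by a pair of unrelated factors. The E protein TCF4 is a basic helix-loop-helix factor that binds E-boxes, written CANNTG, and its own gene lies on the long arm of chromosome 18. TCF7L2, also called TCF4 in the Wnt literature, is an HMG-box partner of beta-catenin that binds sites with the core CTTTGA. Which factor the antibody was raised against is not stated in the labels. Chromosome 18 is gene-poor among human chromosomes, and its long arm carries clusters of squamous genes, among them the desmosomal cadherins that bind keratinocytes to one another and the clade B serpins, protease inhibitors of which many are made in the epidermis.

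Sequence was at hand for windows at gene starts alone, and 242 of the 332 peaks (72.9%) lay away from the ends of protein-coding genes, so the sequences below stand for the summits at starts and not for all recovered DNA. Each window below runs from 250 bases before to 50 bases after a gene's start, 5′ to 3′ on the gene's strand, as RefSeq gives it for GRCh38.p14, and capitals mark every E-box and every TCF/LEF core, on either strand. The first 6 belong to the genes with the highest fold of a peak at an end of the gene record whose window held a summit, 3 for each arm. SEH1L encodes a protein of the nuclear pore (chr18:12947761-12948060, plus strand), AFG3L2 a protease of the mitochondrial inner membrane (chr18:12377178-12377477, minus strand) and NDUFV2 a subunit of respiratory complex I (chr18:9102449-9102748, plus strand). These 3 are on the short arm. On the long arm, TXNL4A encodes a protein of the spliceosome (chr18:80033887-80034186, minus strand), SERPINB5 the epithelial serpin maspin (chr18:63476708-63477007, plus strand) and VPS4B an ATPase that recycles the ESCRT membrane-scission machinery (chr18:63422427-63422726, minus strand).
SEH1L: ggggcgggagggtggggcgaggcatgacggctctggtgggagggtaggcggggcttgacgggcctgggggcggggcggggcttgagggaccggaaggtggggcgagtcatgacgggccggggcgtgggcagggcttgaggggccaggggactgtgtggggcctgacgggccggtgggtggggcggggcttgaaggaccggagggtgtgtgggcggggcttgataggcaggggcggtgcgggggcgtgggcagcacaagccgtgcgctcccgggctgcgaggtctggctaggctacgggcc
AFG3L2: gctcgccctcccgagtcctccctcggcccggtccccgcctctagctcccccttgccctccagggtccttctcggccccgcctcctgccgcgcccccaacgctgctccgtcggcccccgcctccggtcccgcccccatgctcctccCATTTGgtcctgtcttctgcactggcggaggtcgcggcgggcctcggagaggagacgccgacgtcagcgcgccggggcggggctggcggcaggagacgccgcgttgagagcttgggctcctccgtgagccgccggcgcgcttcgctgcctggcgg
NDUFV2: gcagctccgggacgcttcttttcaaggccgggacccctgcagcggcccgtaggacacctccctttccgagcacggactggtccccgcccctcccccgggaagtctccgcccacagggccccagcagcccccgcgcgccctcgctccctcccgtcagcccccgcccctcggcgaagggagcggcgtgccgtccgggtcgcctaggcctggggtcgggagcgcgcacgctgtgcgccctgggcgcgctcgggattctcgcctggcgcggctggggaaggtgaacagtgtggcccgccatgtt
TXNL4A: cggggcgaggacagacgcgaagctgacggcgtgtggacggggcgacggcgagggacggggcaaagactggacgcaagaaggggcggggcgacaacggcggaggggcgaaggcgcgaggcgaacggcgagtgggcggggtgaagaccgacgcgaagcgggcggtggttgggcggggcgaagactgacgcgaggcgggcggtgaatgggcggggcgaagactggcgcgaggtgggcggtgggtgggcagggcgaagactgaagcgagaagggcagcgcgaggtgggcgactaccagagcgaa
SERPINB5: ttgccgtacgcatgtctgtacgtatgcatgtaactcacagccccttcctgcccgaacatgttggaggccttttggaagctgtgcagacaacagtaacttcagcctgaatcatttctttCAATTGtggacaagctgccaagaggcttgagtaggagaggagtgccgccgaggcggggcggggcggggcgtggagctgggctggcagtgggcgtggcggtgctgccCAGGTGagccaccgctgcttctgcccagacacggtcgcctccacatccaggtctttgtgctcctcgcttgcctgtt
VPS4B: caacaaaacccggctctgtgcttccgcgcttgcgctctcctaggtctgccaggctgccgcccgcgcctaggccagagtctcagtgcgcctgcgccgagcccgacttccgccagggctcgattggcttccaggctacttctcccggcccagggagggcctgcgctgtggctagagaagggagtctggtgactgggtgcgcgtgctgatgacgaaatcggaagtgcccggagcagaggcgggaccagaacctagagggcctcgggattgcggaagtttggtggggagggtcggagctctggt

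In these 6 windows the summit lay 117, 194, 46, 157, 97 and 94 bp upstream of the start, in the order printed. SEH1L, NDUFV2, TXNL4A and VPS4B held no E-box, AFG3L2 held 1 and SERPINB5 held 2. None of the 6 held CTTTGA or TCAAAG. The GC content was between 59.7% in SERPINB5 and 76% in AFG3L2.

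A further pair of windows is shown for other reasons. LAMA3 encodes the laminin alpha chain that anchors squamous epithelium to its basement membrane, and its window belongs to a start inside the gene record (chr18:23872770-23873069, plus strand), with the summit 100 bp upstream and a fold of 9.17, above that of VPS4B. CEP76 encodes a centrosomal protein (chr18:12702728-12703027, minus strand), and its window shares bases with that of the divergent gene PSMG2. It was chosen after the values were seen, because these 2 overlapping windows were the only ones on chromosome 18 with both a summit and a TCF/LEF core.
LAMA3: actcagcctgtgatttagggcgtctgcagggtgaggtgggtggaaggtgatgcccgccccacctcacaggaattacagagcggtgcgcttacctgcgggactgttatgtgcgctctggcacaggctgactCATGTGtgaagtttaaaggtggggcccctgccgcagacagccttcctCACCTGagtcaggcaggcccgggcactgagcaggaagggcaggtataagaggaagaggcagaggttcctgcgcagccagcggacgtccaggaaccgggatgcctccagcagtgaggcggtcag
CEP76: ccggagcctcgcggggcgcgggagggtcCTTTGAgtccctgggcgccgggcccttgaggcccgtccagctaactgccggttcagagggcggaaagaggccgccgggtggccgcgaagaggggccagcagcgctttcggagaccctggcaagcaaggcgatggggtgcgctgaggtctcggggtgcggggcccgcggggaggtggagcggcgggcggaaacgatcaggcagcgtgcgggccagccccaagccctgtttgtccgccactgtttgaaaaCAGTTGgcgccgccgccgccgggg

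The motif content of all windows gives the scale for these examples. RefSeq gave 365 such windows for protein-coding genes of chromosome 18, and 49 of them held a summit, 27 of 103 on the short arm and 22 of 262 on the long arm. Several windows can belong to 1 gene, and divergent genes share bases. CANNTG, which reads the same pattern on both strands, was in 57.1% of the 49 windows with a summit and in 66.1% of those without. It was in 65.1% of the 22199 windows of all chromosomes in the table. The E-box form CAGGTG or its reverse complement CACCTG, which overlaps CANNTG, was in 18.4% of windows with a summit and 18.04% without. The core CTTTGA or its reverse complement TCAAAG was in 4.08% (2 of 49) with a summit, against 10.1% without and 10.9% of all windows in the table. The GC box GGGCGG or its reverse complement CCGCCC was in 45 of the 49 windows with a summit (91.8%), against 49.1% of those without and 56.3% of all windows in the table. The windows with a summit had a median GC content of 73% and a median of 35 CpG, against 60% and 19.5 CpG in the windows without one. Over all chromosomes, the 5235 windows with a summit had CANNTG in 57.3%, CAGGTG or CACCTG in 18.5% and CTTTGA or TCAAAG in 6.61%. The GC box was in 81.6% of them, with a median GC content of 68% and a median of 29 CpG. The directions were thus shared with the whole list. GC content moved with the presence of a summit, and its part in the motif shares was not tested. By arm, the GC box was in 85.2% of short arm windows with a summit and in all 22 of the long arm, and CANNTG was in 63.0% on the short arm and 50% on the long arm.

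The short arm was dense in peaks and the long arm sparse. The short arm had 12.4 peaks per Mb over its 18 Mb (exact Poisson interval 10.9 to 14.2). The long arm had 1.73 per Mb over 62.3 Mb (1.42 to 2.09), and all other chromosomes had 8.75 per Mb. The density of the short arm was 7.17 times that of the long arm (interval 5.68 to 9.11). Protein-coding genes did not differ to this degree, with 3.89 per Mb on the short arm and 3.21 on the long arm, a ratio of 1.21. Per protein-coding gene there were 3.2 peaks on the short arm, 0.54 on the long arm and 1.33 on all other chromosomes, so the ratio between the arms was 5.93 per gene (4.69 to 7.53). Peaks covered 51.96 kb of the short arm and 21.6 kb of the long arm.

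The averages of the whole chromosome hid this contrast. Its 4.14 peaks per Mb made chromosome 18 the second lowest of 22 autosomes, above chromosome 4 with 2.59. For comparison, the other autosomes were divided at the middle of their largest stretch without genes, which gave 34 arms of 17 autosomes with at least 20 protein-coding genes in each arm. The long arm of chromosome 18 was the third lowest in peaks per Mb, after 4q with 1.05 and 8p with 1.62. The short arm was 11th highest. In peaks per protein-coding gene the short arm was second highest, after 7p with 4.70. The ratio of 7.17 between the arms was the highest of the 17 autosomes, followed by 6.47 on chromosome 4. Per protein-coding gene the ratio of 5.93 was not the highest, since chromosome 8 had 5.97.

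**Figure D1:**
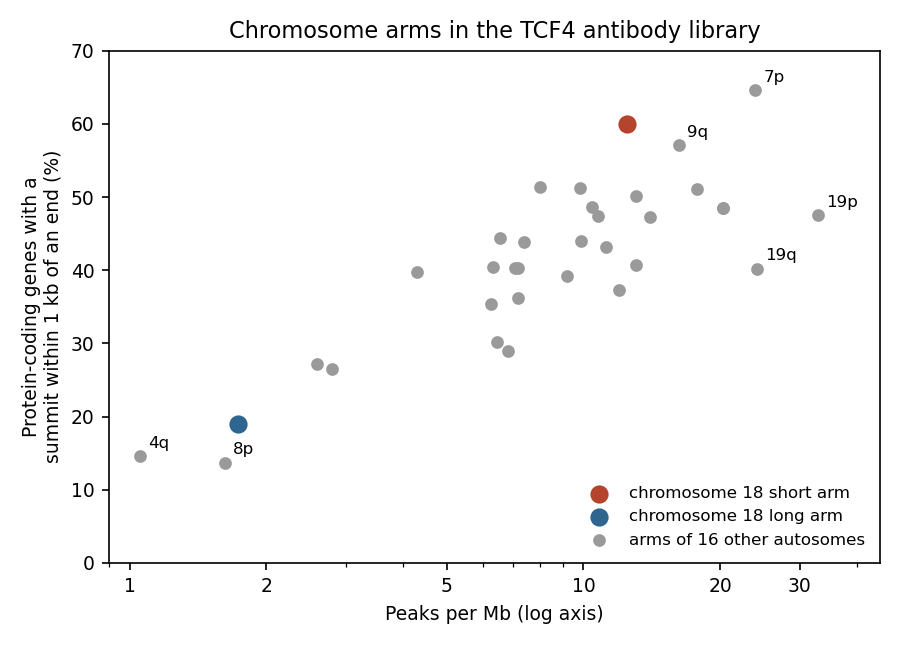
Each point is an arm of an autosome, with peaks per Mb on the horizontal log axis and the percent of protein-coding genes with a summit within 1 kb of an end on the vertical axis. Red is the short arm of chromosome 18 (12.4 per Mb, 60%), blue its long arm (1.73 per Mb, 19%) and grey the arms of 16 other autosomes; the long arm lies beside 4q and 8p, and the short arm lies second from the top.

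Over the whole list of called peaks, the arms had similar median fold enrichment, while the background around the peaks differed. The fold is the authors' ratio of fragments at the summit to the local background, with the same constant added to both, as given under processing. The fold is thus below the plain ratio, and more so where the background is low. Its median was 5.098 on the short arm (interval 4.88 to 5.27, quartiles 4.43 and 6.05) and 5.42 on the long arm (5.02 to 5.59, quartiles 4.65 and 6.78), against 5.13 on all other chromosomes. The 2 intervals overlap. The number of fragments at a summit, recovered from the fold and the p-value, had a median of 8 on the short arm, 7.5 on the long arm and 10 on all other chromosomes. For 8 fragments the exact Poisson interval runs between 3.45 and 15.8, so single folds are coarse. The short arm held 22 peaks of at least 20 fragments and 12 of at least 30. The long arm held 3 of at least 20 and 0 of 108 of at least 30. Taking 3 counts as the limit, the latter allows a share of up to 2.78%.

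The local background of a peak, also recovered from the fold and p-value, had a median of 0.805 fragments on the short arm (interval 0.726 to 0.903) and 0.579 on the long arm (0.550 to 0.628), against 0.967 on all other chromosomes. It lay at the lowest value of the list for 7.14% of short arm peaks and 33.3% of long arm peaks. The background thus differed in the same direction as the density, by a ratio of 1.39, and its part in the number of peaks was not tested. More copies of an arm, more accessible DNA and more frequent binding cannot be told apart in this peak list.

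**Figure D2:**
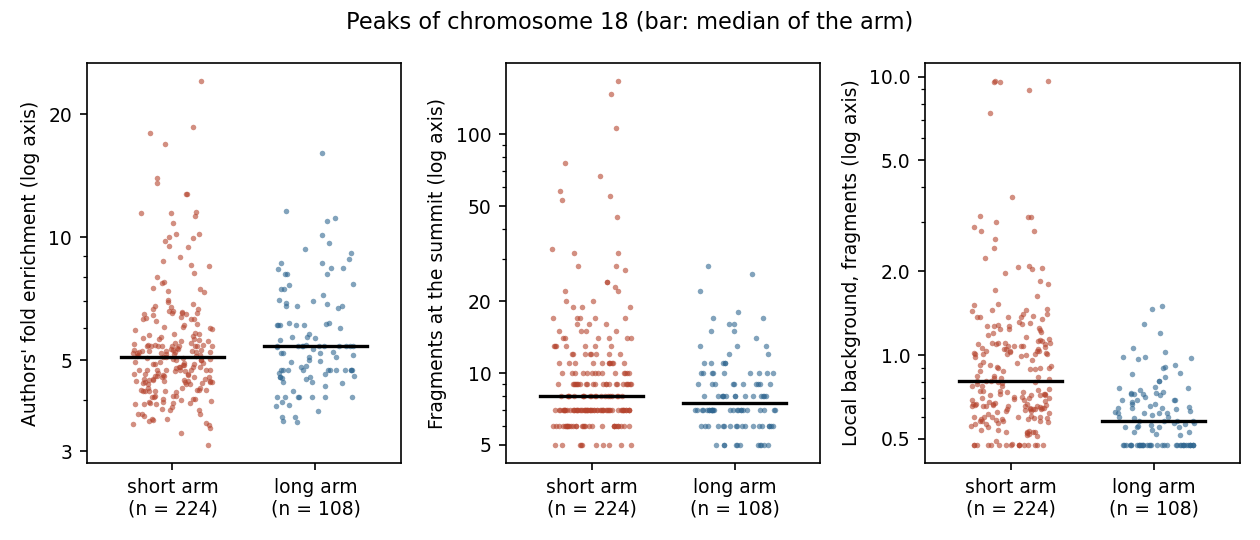
Each point is a peak of chromosome 18, by arm, and the bar is the arm's median; the panels give the authors' fold enrichment, the fragments at the summit and the local background in fragments, all on log axes. The medians of fold (5.098 on the short arm, 5.42 on the long arm) lie close together, the background is higher on the short arm (0.805 against 0.579), and only short arm peaks reach 30 fragments.

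The arms also differed in where peaks sat relative to genes. On the short arm 48 peaks (21.4%, Wilson interval 16.6 to 27.3) had their summit within 1 kb of an end of a protein-coding gene, against 42 (38.9%, 30.2 to 48.3) on the long arm and 32.3% on all other chromosomes. Ends of other genes, such as long noncoding RNAs, held 28 short arm peaks (12.5%) and 4 long arm peaks (3.70%). On all other chromosomes they held 7.20%. Inside protein-coding genes lay 69 short arm peaks (30.8%, 25.1 to 37.1) and 30 long arm peaks (27.8%, 20.2 to 36.9). Between genes lay 62 short arm peaks (27.7%, 22.2 to 33.9) and 23 long arm peaks (21.3%, 14.6 to 29.9). For both classes the intervals of the arms overlap. All other chromosomes had 31.7% inside protein-coding genes and 22.4% between genes. More than 100 kb from any protein-coding end lay 54 short arm peaks (24.1%) and 14 long arm peaks (12.96%). The share was 13.6% on all other chromosomes. In peaks per Mb, the ratio of the short arm to the long arm was 3.95 at coding ends (2.56 to 6.13) and 9.22 away from them (6.91 to 12.4). Peaks at these ends had a median fold of 6.16 on the short arm and 6.12 on the long arm, and peaks away from them 4.88 on the short arm and 5.13 on the long arm.

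Seen from the genes, 42 of 70 protein-coding genes of the short arm (60%, interval 48.3 to 70.7) carried a summit at an end, meaning within 1 kb of it, against 38 of 200 on the long arm (19%, 14.2 to 25). The share was 41.2% over all 20037 protein-coding genes and 29.6% (80 of 270) on chromosome 18 as a whole, against 41.3% on all other chromosomes. Among the 34 arms, the short arm was second highest by this share, after 7p with 64.6%, and the long arm was the third lowest, after 8p with 13.7% and 4q with 14.6%. With peaks of −log10 q of at least 5, the shares were 40% on the short arm, 13% on the long arm and 27.1% over all genes. RefSeq gives the strand, and so the start, of 234 of the 270 genes. A summit lay within 1 kb of a start for 37 of 62 short arm genes (59.7%) and 37 of 172 long arm genes (21.5%), against 44.5% over all genes with a known start. A summit near the finish was rare, with 0 of 62 on the short arm (0%, which allows up to 4.84%) and 3 of 172 on the long arm (1.74%), against 4.8% over all. The 3 long arm finishes were 1.28% of the 234 genes of the chromosome, and 2 of these genes, HMSD and SERPINB2, had a summit at the finish alone.

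**Figure D3:**
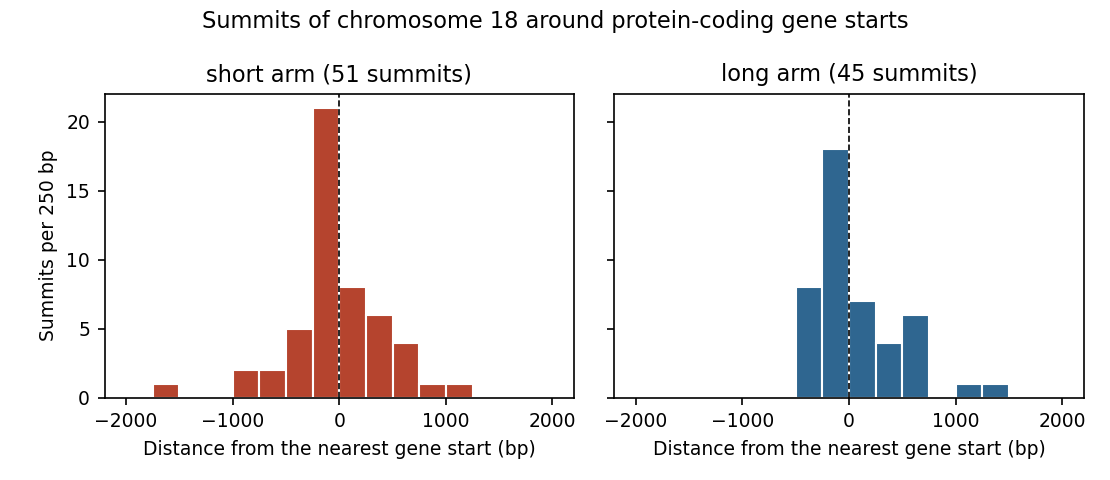
The bars count summits of chromosome 18 by their distance in bp from the nearest start of a protein-coding gene, in steps of 250 bp, with the start at 0 and upstream to the left; the short arm is red and the long arm blue. The tallest bar on both arms is the one just upstream of the start, with 21 short arm summits and 18 long arm summits.

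Most of these summits lay upstream of the start, as they did on the other chromosomes. Within 1 kb of a start there were 49 short arm summits, 30 of them upstream, and 43 long arm summits, 26 upstream. On all other chromosomes 4679 of 7553 such summits lay upstream. Some summits served a pair of genes: 3 of the 48 short arm summits and 5 of the 42 long arm summits at coding ends lay within 1 kb of 2 genes. NDC80 and METTL4 shared one, as did MYL12A and MYOM1 on the short arm, and TXNL4A and RBFA or PIGN and RELCH on the long arm. Such a summit cannot be assigned to either gene.

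The strongest gene ends of the short arm belonged to genes of inositol metabolism, the nuclear pore, mitochondria and the centrosome. IMPA2, an inositol monophosphatase, had the highest fold, 18.6 on 76 fragments, in a peak at chr18:11980717-11981577. SEH1L followed with 17.98 on 67 fragments (chr18:12947592-12948354) and AFG3L2 with 13.6 on 55 (chr18:12377122-12377840). NDUFV2 had 12.7 on 22 fragments, and CEP192, a scaffold of the centrosome, 11.5 on 28. Others among the strongest were PTPN2, a tyrosine phosphatase that restrains JAK and STAT signalling (11.5 on 24), and USP14, a deubiquitinase bound to the proteasome (10.2 on 20). ANKRD12, an ankyrin-repeat protein of the nucleus, had 9.996 on 27, and ENOSF1, an enzyme whose gene overlaps TYMS, had 9.96 on 20.

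The strongest gene ends of the long arm lay lower in fragments. ESCO1, the acetyltransferase that secures sister-chromatid cohesion, had a fold of 11.6 on 22 fragments (chr18:21600780-21601022). RNF138, a ubiquitin ligase of DNA repair, had 11.1 on 18, and the shared start of TXNL4A and RBFA, a factor of mitochondrial ribosome assembly, had 11.0 on 26 (chr18:80033682-80034397). SERPINB5 had 9.66 on 17 (chr18:63476720-63476981), SLC66A2, a membrane transport protein, 9.36 on 17, and VPS4B 8.87 on 13. Next came the peak at HMSD and SERPINB8 (8.66 on 14) and NPC1, the lysosomal cholesterol exporter (8.41 on 15). ROCK1, a kinase of actomyosin contraction, DSEL, an enzyme of dermatan sulfate synthesis, and OSBPL1A, a lipid-transfer protein, all had 8.13 on 11 fragments. Over all genes with such a peak, the median fold of the strongest one was 6.53 on the short arm and 7.12 on the long arm, with a median of 13 fragments on the short arm and 10 on the long arm.

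Squamous adhesion genes of the long arm were mostly without a peak at an end. Of the 7 desmosomal cadherins, between 30989365 and 31549008 on chromosome 18, DSC3 (7.24 on 10 fragments) and DSG2 (6.78 on 9) had one. DSC1, DSC2, DSG1, DSG3 and DSG4 had none and no summit inside. DSC3 and DSG3 are the isoforms of basal keratinocytes, and DSG2 is the isoform of simple epithelia and many carcinomas. Of the clade B serpins, 3 of 10 had one, namely SERPINB5, SERPINB8 and SERPINB2, an inhibitor of urokinase with its summit at the finish (5.43 on 10). The other 7 included SERPINB3 and SERPINB4, the squamous cell carcinoma antigens, and had none. The rate of the long arm was 19%, and counts this small cannot be set apart from it.

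Of the 4 other cadherins, all on the long arm, none had a peak at an end. CDH2, the N-cadherin of mesenchymal cells, had none inside either. CDH7 missed the limit narrowly, with a summit 1015 bp from the end of its record and 255 bp from one of its starts (5.16 on 7), and counted by starts or within 2 kb the group had 1. Of the laminin chains, LAMA1 on the short arm had a summit 3 bp from an end (6.30 on 12), and LAMA3 on the long arm had none at the record's ends. LAMA3 held its summit at the internal start printed above, with a fold of 9.17 on 16 fragments. Of 9 genes listed as squamous epithelium markers, all on the long arm, where the rate was 19%, DSC3, DSG2 and SERPINB5 had a peak at an end. DSG2, as the isoform of simple epithelia and many carcinomas, does not mark squamous cells alone. DSG3, DSC2, SERPINB3, SERPINB4 and SERPINB13 had no summit, and LAMA3 only the one inside.

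Of the 12 genes listed as transcription factors, all on the long arm, where the rate was 19%, 0 had a peak at an end. Of these, 5 held a summit inside, namely GATA6, a factor of endoderm, TSHZ1, NFATC1, ZBTB7C and ZNF236, with folds up to 5.71. The list does not hold every such factor of the chromosome, and ZBTB14 on the short arm is in no list. SMAD2 and TGIF1, given below, were counted with the SMAD genes. The E protein gene TCF4 itself (chr18:55222185-55635957) had 0 summits at its ends and 0 inside. The nearest summits lay 1122 kb below it (fold 5.42 on 7 fragments) and 1986 kb above it (6.78 on 9), where NARS1, the asparaginyl-tRNA synthetase, starts. Among 7 genes of SMAD and TGF-beta signalling, 2 on the short arm and 5 on the long arm, SMAD2, a receptor-activated signal carrier, had 2 summits at its ends, the stronger with 5.46 on 8, and none at −log10 q of at least 5. SMAD4, the shared partner of the SMADs, and SMAD7, their inhibitor, had none at an end or inside. TGIF1, a homeodomain repressor of SMAD signalling on the short arm, held its summits at starts inside its record, the stronger with 6.58 on 24 fragments, 138 bp upstream of one. Of 8 genes listed as chromatin proteins 3 had a peak at an end, beside 29.6% of genes on the whole chromosome. They were SMCHD1, which helps silence the inactive X (6.58 on 14), and the CpG-binding neighbours CXXC1 (4.54 on 9) and MBD1 (4.41 on 10). SMCHD1 alone was left at −log10 q of at least 5. CHMP1B, also in the list, had no peak and belongs by role to the ESCRT machinery.

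The counts of the groups of widely expressed genes are set beside the 60% of all short arm genes and the 19% of all long arm genes with a peak at an end. On the short arm all 5 genes of the cytoskeleton list had a peak at an end, with folds between 4.23 and 8.95. They were MYL12A, MYL12B, MYOM1, EPB41L3 and ARHGAP28. The lists do not hold every gene of a role. SPIRE1, counted with the mitosis genes, and TUBB8B, in no list, had none at an end, while TUBB6, in no list, had 2 summits at its ends. EPB41L3 links membrane proteins to actin, and MYL12A and MYL12B are regulatory light chains of nonmuscle myosin, and the summit of MYL12A is also that of its neighbour MYOM1, a sarcomere protein. On the long arm 1 of 3 had one, ROCK1. The genes of RNA processing and translation had 3 of 3 on the short arm and 3 of 8 on the long arm. Those of the short arm were THOC1 of mRNA export, the cap methyltransferase RNMT and the methyltransferase METTL4. Those of the long arm were TXNL4A, the spliceosome core protein SNRPD1 and NARS1. The summit of RNMT is also that of FAM210A, and the summit of METTL4 is counted again for NDC80 in the mitosis group. The proteasome and protein turnover group had 2 of 2 on the short arm (USP14 and PSMG2, a proteasome assembly chaperone) and 3 of 8 on the long arm (RNF138, the ubiquitin ligase NEDD4L, and PIGN, which acts in the synthesis of membrane anchors). The mitochondrial group had NDUFV2 and AFG3L2 on the short arm, and none of 4 listed on the long arm, where ATP5F1A, FECH, ACAA2 and TXNL1 lacked one. TXNL1 is in the list but is not a mitochondrial energy protein. With peaks of −log10 q of at least 5, the count of the protein turnover group over both arms was 3 in place of 5.

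Mitosis and centrosome genes had 3 of 4 on the short arm, where the rate was 60%, and 1 of 4 on the long arm, where it was 19%. CEP192, NDC80, which binds kinetochores to microtubules (5.41 on 8), and CEP76 (4.83 on 7) were the short arm genes and ESCO1 the long arm gene. The summit of NDC80 is also that of METTL4, counted in the RNA processing group. In DNA synthesis, TYMS, the thymidylate synthase that 5-fluorouracil inhibits, had 2 summits at its ends, the stronger with 6.61 on 13 fragments. RMC1, listed with it, had 6.16 on 9 and acts in endosomal traffic. With peaks of −log10 q of at least 5, the mitosis count over both arms was 2 in place of 4. The kinases and signalling group had 4 of 6 on the short arm (rate 60%) and 3 of 8 on the long arm (rate 19%). YES1, a kinase of the Src family, had 6.75 on 13, and APCDD1, a Wnt inhibitor, 4.03 on 7. On the long arm the group was MIB1, a ligase of Notch ligands (7.63 on 13), PHLPP1 and MALT1. PHLPP1, a phosphatase of AKT, had 6.14 on 9 and MALT1, a paracaspase, 5.81 on 8. The summit of MIB1 lay 118 bp from an end of its record and 24 bp from the start of ABHD3. It cannot be assigned to either gene. BCL2, the inhibitor of apoptosis, held 1 summit inside (6.10 on 8).

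Membrane traffic was the group with most long arm peaks, 5 of 6 genes there against 19% of all long arm genes, beside 3 of 4 on the short arm, where the rate was 60%. VAPA, a tether of the endoplasmic reticulum, had 9.46 on 28 and headed the short arm members, with the small GTPases RAB31 (5.13 on 10) and RAB12 (4.46 on 7). On the long arm the members were VPS4B, NPC1, the cargo receptor LMAN1, the signal peptidase subunit SEC11C and the vesicle tether TRAPPC8. LMAN1, SEC11C and TRAPPC8 had a fold of 4.07 on 5 fragments each, the lowest number of fragments in the list's long arm peaks, and their −log10 q of 2.06 puts them below the threshold of 5. RAB31 and RAB12 were below it too, which left 3 of the group's 8 genes with a peak.

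Among 14 markers of other cell types, 3 on the short arm (rate 60%) and 11 on the long arm (rate 19%), 0 had a peak within 1 kb of an end of the record, and 5 held a summit inside. Counted by starts alone, 2 had one, with a summit 517 bp from an MBP start and 635 bp from the start of CBLN2, which encodes a synaptic organiser. The 5 included MBP of myelin, with a fold up to 5.68, and GALR1, a galanin receptor, with 10.1 on 16 fragments. The groups were chosen with earlier results of these data known, and all their counts are a description.

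**Figure D4:**
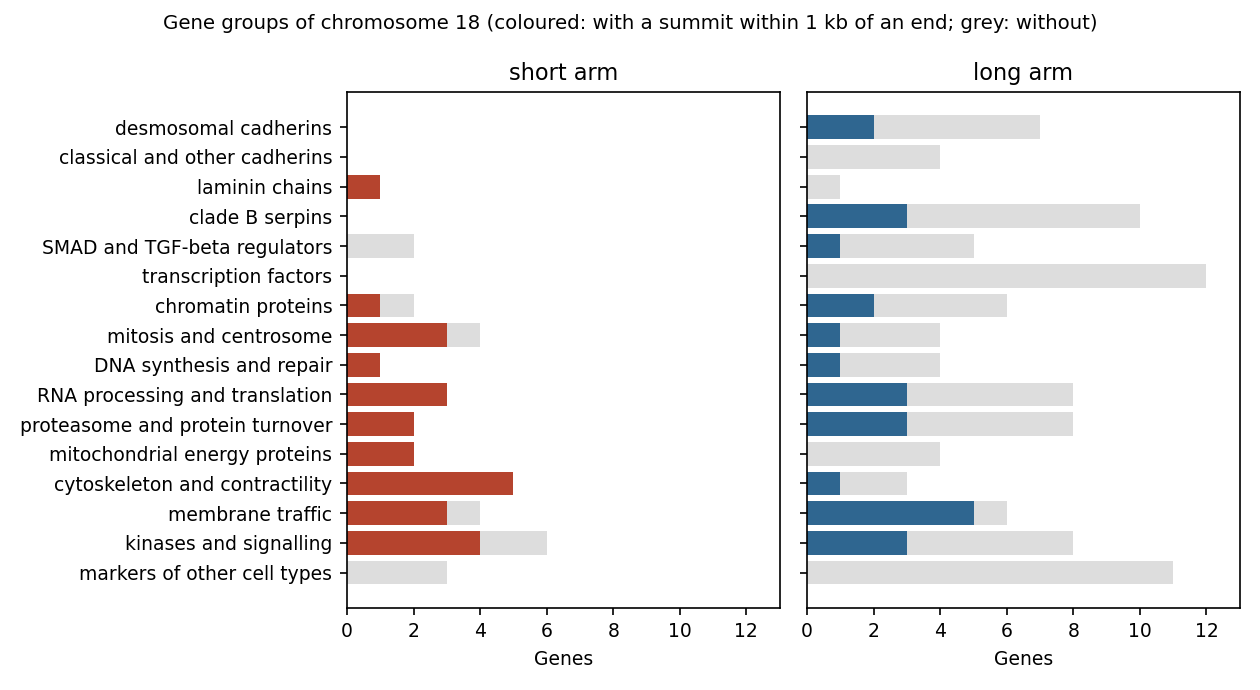
Bars give the number of genes of each group on the short arm (left) and the long arm (right); the coloured part is the genes with a summit within 1 kb of an end and the grey part those without. Listed cytoskeletal genes stand at 5 of 5 on the short arm, where 60% of all protein-coding genes had a summit at an end. Counted by starts alone, that list had 4 genes over both arms in place of 6. On the long arm, where 19% had, listed membrane traffic genes stand at 5 of 6 and listed transcription factors at 0 of 12.

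Away from gene ends the short arm held the highest fold of the chromosome. A peak at chr18:4510743-4511029, between genes and 55618 bp from the nearest protein-coding end, that of DLGAP1, had a fold of 24.1 on 58 fragments. DLGAP1, a scaffold of synapses, also held 9 summits inside, the strongest with 12.7 on 45 fragments (chr18:3623865-3624521). The next strongest of these 9, 126 bp from the end of the antisense RNA gene DLGAP1-AS6, had 11.3 on 19. EPB41L3 held 9 as well, up to 7.33, PTPRM, a receptor tyrosine phosphatase of cell contacts, 8 up to 5.46, PIEZO2, a mechanosensitive channel, 7 up to 9.79, and L3MBTL4 6. No long arm gene held more than 2. These counts were not divided by gene length. They include 2 summits at the ends of EPB41L3, 2 at those of L3MBTL4 and 1 at those of DLGAP1. DLGAP1 runs from 3496032 to 4455307 and PTPRM from 7567316 to 8406856. Over all its length the short arm had 12.4 peaks per Mb and the long arm 1.73.

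The strongest short arm peaks by fragments lay in a small block near the start of the chromosome. ROCK1P1, a pseudogene copy of ROCK1, is annotated at chr18:109065-122340, and 6 peaks there or just beside it rested on 32 to 167 fragments over local backgrounds of 7.43 to 9.63. Their fold was at most 16.9. Because reads of ROCK1P1 and near-identical copies can be misplaced, these values are uncertain. Without these 6 the short arm had 218 peaks, at most 76 fragments and a median background of 0.797. The summit with 167 fragments lay in the hairpin of MIR8078, the only one of 31 microRNA hairpins of chromosome 18 within 1 kb of a summit. Its precursor is printed because the summit falls within it (chr18:112256-112339, minus strand, RefSeq, GRCh38.p14, no capitals):
MIR8078: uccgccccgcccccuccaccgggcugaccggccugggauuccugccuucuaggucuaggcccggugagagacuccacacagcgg

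On the long arm the peak of highest fold away from gene ends was also the peak of highest coordinate, chr18:80262892-80263237, with 16.1 on 28 fragments. The next were the peak inside GALR1 (chr18:77252863-77253041), that of LAMA3, and a peak at chr18:79016595-79016773 with 8.65 on 13. The fifth, at chr18:63882736-63883161 with 8.39 on 12, lay 4621 bp from SERPINB2. Starts inside gene records accounted for 10 short arm summits in 6 genes and 8 long arm summits in 8 genes. The G protein subunit gene GNAL on the short arm was one, with 7.75 on 23 fragments 69 bp upstream of such a start. PSMG2 was another, and its summit there is also the one counted at an end of CEP76. On the long arm CTDP1, a phosphatase of RNA polymerase II, had 6.91 on 11 and MAPRE2, a microtubule plus-end protein, 5.42 on 7.

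Summits were spread unevenly along the long arm. In bins of 4 Mb the short arm held between 50 and 65 summits in each bin up to 16 Mb, and the long arm held between 0 and 27, with 27 from 76 to 80 Mb, 15 from 20 to 24 Mb and 12 from 48 to 52 Mb. The 2 summits nearest the division between the arms lay at 15197767 on the short arm (fold 5.30 on 7) and 21111939 on the long arm (8.13 on 11, the start of ROCK1), 5.91 Mb apart. Some windows, chosen with the earlier results known, are given beside the 19% of all long arm genes with a summit at an end. From 20 to 25 Mb there were 17 summits, and 8 of 21 protein-coding genes had one at an end. From 62 to 64 Mb there were 14, or 7 per Mb, with 10 of 19 genes and a median fold of 6.12. The last stretch, from 79 to 81 Mb, held 16, or 8 per Mb, with 5 of 13 genes. The other chosen windows had fewer summits per Mb. They had 5 of 17 genes from 30 to 33 Mb, 5 of 29 from 52 to 60 Mb and 0 of 17 from 36 to 46 Mb.

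Elsewhere the long arm had long runs without a summit. The longest ran from 36309648 to 46373821, 10.1 Mb with 16 protein-coding genes. Among these were SETBP1, a nuclear protein mutated in some leukaemias, PIK3C3, the lipid kinase of autophagy, EPG5, ATP5F1A of the mitochondrial ATP synthase and HAUS1 of the spindle. A run of 4.89 Mb from 67516865 to 72407838 held 6 genes. A run of 3.52 Mb from 54099703 to 57621929 held 15, and TCF4, MBD2, POLI, TXNL1, ONECUT2 and FECH were among these. The run from 27674080 to 30788747, 3.11 Mb, held CDH2.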

How the data were processed

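TCF4 antibody DNA of CAL-27 sphere cells was measured in 1 library. Data of the IgG library were not analysed here. Bowtie2 2.3.5.1, SAMtools, MACS2 2.2.7.1 and hg38 were used, per the submitters' processing notes. Settings, sequencing depth, and whether IgG served as the caller's control are not given in the sources used here. The deposited peak list holds a fold enrichment ratio and the −log10 of a p-value and a q-value at each summit. The score deposited with each peak restates its q-value as a whole number, 10 times the −log10 q. The p-values and folds, as deposited by the authors, were solved for the fragments and local background of all 26642 peaks, within 0.0001, after a check on simulated peaks. The caller's form, a Poisson upper tail and fold as fragments plus 1 over background plus 1, was used. The lowest background was 0.475. These values describe and rank peaks within this list.

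Genes, promoters and microRNA precursors came from RefSeq tables of GRCh38.p14, the assembly hg38 names; no genome was used here. A summit no more than 1 kb from an end of a gene record was at that end, and a start was used where the promoter table gives the strand. Each summit had 1 class, with ends taken before insides and protein-coding genes before others. The members, the 16 gene lists and the tests were chosen with earlier results of these data known. Named genes were the 10 with the highest fold at an end in each arm, list members with and without a peak, the 5 strongest peaks away from coding ends in each arm, the TCF4 locus, and 5 genes by number of summits inside. An item that this rule names is not reported here. Results were recomputed with stricter thresholds, other windows, gene starts, any overlap, merged summits and left-out peaks. Computations ran in Python 3.11.15 with pandas 2.3.3, NumPy 2.4.6, SciPy 1.17.1 and, for figures, Matplotlib 3.10.9.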

Additional observations from a re-analysis of the deposited data

How the results depend on the processing

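The short arm was denser in peaks, and had the higher share of genes with a peak, under every alternative run. The density ratio lay between 5.93 and 8.03 except with at least 10 fragments, where it was 9.57. Stricter thresholds raised the share of peaks at coding ends on both arms, to 38.4% (short) and 59.0% (long) at −log10 q of at least 5, and to 53.9% and 66.7% at 10. The median fold was 6.75 (short) and 7.46 (long) at −log10 q of at least 5, 6.54 and 8.13 with at least 10 fragments, and 6.16 and 6.12 at coding ends. The median background was 0.726 for short arm peaks away from coding ends, 1.12 for short arm peaks at −log10 q of at least 5, and 0.667 for long arm peaks above the lowest background. Leaving out the ROCK1P1 peaks was chosen after seeing the data, and gave 0.797. Of the 16 lists, 5 moved in their count by over 1.5 times at −log10 q of at least 5: SMAD genes to 0, chromatin proteins to 1, mitosis to 2, protein turnover to 3 and membrane traffic to 3. With gene starts alone, SMAD genes and markers of other cell types moved to 2 and other cadherins to 1. The cadherins also moved to 1 with any overlap or 2 kb, and the markers with 2 kb. Peaks rest on few fragments, the library's depth is unknown, and folds near 5 are coarse. No paired analysis was possible because each group has 1 library and IgG data were not analysed here.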

Other observations

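The peak of lowest coordinate on chromosome 18, chr18:10019-10229, had a fold of 10.8 on 15 fragments. On 8 of 24 chromosomes the first peak began before base 11000, namely 1, 2, 3, 4, 7, 10, 12 and 18.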
